A study of Mus musculus with 11 samples.

Results

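Gzmb CD8 T cells, as named here, are T cells from dissociated lung that carried RNA for CD8 and for granzyme B. Granzyme B is a serine protease that CD8 T cells and NK cells deliver into the cells they kill. The Gzmb CD8 T cells were chosen by a gate on unique molecular identifiers (UMIs, the count of RNA molecules per gene and cell barcode). A barcode counted as a cell when it held between 1000 and 30000 UMIs, no more than 14% of them mitochondrial. A cell was a member when it held 2 or more UMIs of Cd3d, Cd3e and Cd3g summed, 1 or more of Cd8a and Cd8b1 summed, 2 or more of Gzmb, and none of Cd4 or Cd79a. This gave 1389 cells of 69267 filtered cells (2.01%) and of 5952 cells that passed the same T cell and CD8 gate with any Gzmb count (23.3%), here called CD8 T cells. The cells came from 11 libraries of droplet-based 3′ single-cell RNA sequencing of dissociated whole lung. The WT library was wild type (+/+) and came from an 18-month-old animal. The 3 p21Het libraries were heterozygous for p21, the cell cycle inhibitor gene Cdkn1a (+/-), at 19 months in p21Het_1 and 18 months in the other two. The 5 p21mTert libraries were +/mTert, an allele named for Tert, the telomerase reverse transcriptase, at 20 months in p21mTert_1 and 18 months in the other four. The 2 p21mTertCD libraries were +/mTertCD at 18 months, an allele that the labels do not spell out. The titles give 18 months for all 11. The p21Het, p21mTert and p21mTertCD libraries each carry 1 + allele, and the labels do not say how much p21 transcript the altered allele gives. WT_1, p21Het_1 and p21mTert_1 were deposited first and the other 8 libraries later.

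Naive CD8 T cells circulate through lymph nodes by means of homing receptors such as Ccr7. After recognising antigen through their T cell receptor they divide, lose these receptors and turn into effector cells, which store granzymes and perforin (Prf1) in granules: perforin opens the target cell's membrane and the granzymes start its death. Each T cell clone carries 1 rearranged receptor, so that daughter cells of a clone share their variable segments. In old mice, CD8 T cells with an effector or memory phenotype are known to accumulate, often as few large clones.

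The libraries held 42038434 to 85988955 UMIs over all barcodes, and the members' own sums ranged from 58203 to 4649349 UMIs. The 11 libraries did not contribute equally: p21mTert_2, p21mTert_5, p21mTertCD_1 and p21mTertCD_2 held 288, 129, 479 and 351 members, together 1247 (89.8%), and the other 7 libraries held 9 to 31 each. Levels in those 7 therefore rest on few molecules. What changes without these 4 libraries is given after each comparison. The library p21mTertCD_2 stood apart from the other three in its members' RNA, as described further on. At most 83 barcodes, 1.46% of the smaller library, were shared by any pair of libraries. The barcodes of 29 members also occurred in another library, and 0 barcodes were members in both. Cells that scored as likely doublets were marked at a fixed rate, which took in 46 members (3.31%). They were kept in the results, and the effect of leaving them out was computed as an alternative. The labels do not say that the libraries of a genotype are separate animals, so p-values measure the spread between libraries.

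The gate was checked against its own background and its markers, as a description. Of B cells, which should lack Gzmb, 16 of 15719 (0.102%) held 2 or more Gzmb UMIs, and of alveolar type 2 cells 5 of 4206 (0.119%), against 23.3% of CD8 T cells. By library, the share ran from 2.77 to 46.8% in CD8 T cells. It ran from 0 to 0.448% in B cells and from 0 to 0.444% in alveolar type 2 cells. The library medians of UMIs per cell were 3448 to 9218 in those B cells, 8226 to 22078 in the alveolar cells and 4221 to 13222 in the members. Members held a median of 4 and at most 74 Gzmb UMIs. Just inside the threshold, 320 members (23.0%) held 2 Gzmb UMIs, and just outside it 527 CD8 T cells held 1. Cd8a had a UMI in 1259 members (90.6%) and Cd8b1 in 1351 (97.3%), of which the rule required at least one. Gzma, a second granzyme and the remaining marker given for these cells, had a UMI in 566 members (40.7%) against 97 of 3200 CD8 T cells (3.03%) that held neither Gzmb nor Gzmk. Its share ran from 6.55% of the members of p21mTertCD_2 to 62.8% of those of p21mTert_2, so the marker was nearly missing in 1 of the largest libraries.

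Levels of other genes were set against the Gzmb count on both sides of the threshold, given here as means over libraries of the level in counts per 1000000 UMIs (CPM), with UMIs summed over the cells of a bin. Gzma stood at 28.7 CPM at 0 Gzmb UMIs, 179.7 at 1, 628 at 2, 1126 at 3 to 4 and 3065 at 5 or more. Ccr7, by contrast, stood at 461 CPM at 0 Gzmb UMIs, 248 at 1, 187 at 2, 163 at 3 to 4 and 84.6 at 5 or more. Cx3cr1, the fractalkine receptor of circulating effector cells, went from 14.2 to 182 CPM between the first and the last bin, and Zeb2, a transcription factor of terminal effector cells, from 38.4 to 235. The threshold at 2 UMIs therefore cut through a gradient: cells with 1 Gzmb UMI lay between cells with none and members for Gzma, Ccr7, Cx3cr1 and Zeb2. Not every gene followed the count among members: over their bins Lef1 stood at 122, 69.6 and 102 CPM, Dapl1 at 8.55, 24.3 and 17.8, Gzmk at 149.5, 144 and 178, and Ccl5 at 17787, 17644 and 19022. The median total per cell was 7928 UMIs at 0 Gzmb UMIs, 8263 at 1, 7080.5 at 2, 7317 at 3 to 4 and 7811 at 5 or more. Depth thus rose over the 3 bins of members, and its part in the gradient was not tested.

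**Figure D1:**
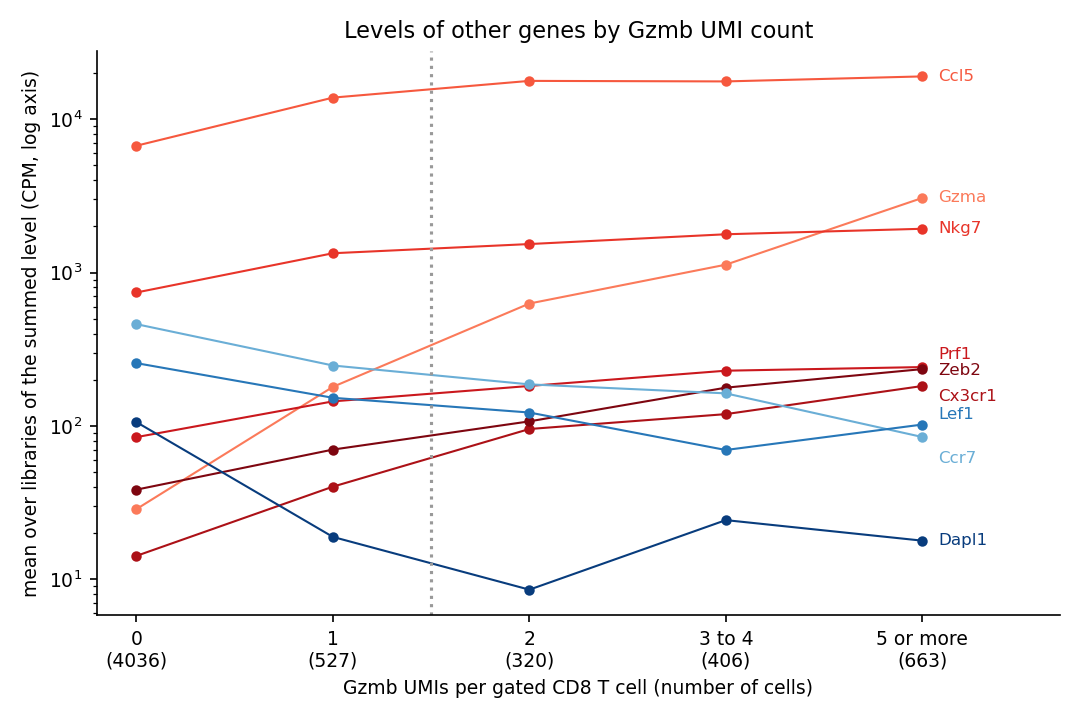
Levels of 9 genes (CPM on a log axis, mean over libraries) in CD8 T cells binned by their Gzmb UMI count, with the number of cells of each bin. The dotted line is the membership threshold. Gzma, Cx3cr1 and Zeb2 rise from left to right, and Ccr7 and Dapl1 are lower in the last bin than in the first.

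How common these cells were in lungs of the 4 genotypes was compared first as a share of CD8 T cells. In WT, members made up 12 of 433 CD8 T cells (2.77%, exact 95% confidence interval 1.44 to 4.79%, which covers counting error only). The p21Het libraries held 3.04%, 3.73% and 6.25%, and the p21mTertCD libraries 46.8% and 40.9%. The p21mTert libraries were spread widely: p21mTert_1, p21mTert_3 and p21mTert_4 held 5.17%, 6.25% and 6.83%, and p21mTert_2 and p21mTert_5 held 34.4% and 39.1%. The range of the first 3 overlapped p21Het, and the last 2 lay below both p21mTertCD libraries. The p21mTert mean was 18.4 ± 16.9% (SD, n = 5), the p21Het mean 4.34 ± 1.69% (SD, n = 3) and the p21mTertCD mean 43.8 ± 4.15% (SD, n = 2). By 2-sided exact permutation tests over libraries, the difference of 14.0 percentage points between p21mTert and p21Het had p = 0.161, the smallest possible p being 0.0179. The difference of -25.5 points between p21mTert and p21mTertCD had p = 0.190 in the exact test (smallest possible 0.0476). Between p21mTertCD and p21Het the difference was 39.5 points with non-overlapping libraries, and its exact p of 0.1 is the smallest that 2 against 3 libraries can give. None of these 3 differences therefore passed 0.05. Without p21mTert_5 the difference between p21mTert and p21Het was 8.83 points. Thinning each cell to 1000 UMIs, with the threshold kept at 2 Gzmb UMIs, was added after seeing the data and changed this picture. The share of CD8 T cells was then 0% in WT (0 of 433 cells, which allows up to 0.693%) and 0.676%, 0.233% and 0.938% in p21Het. It was 1.67%, 10.4%, 1.20%, 1.95% and 13.9% in p21mTert 1 to 5, and 8.40% and 3.61% in p21mTertCD, so p21mTert_2 and p21mTert_5 lay above both p21mTertCD libraries. The difference was 5.22 points between p21mTert and p21Het (exact p = 0.125), -0.173 points between p21mTert and p21mTertCD (exact p = 0.952) and 5.39 points between p21mTertCD and p21Het (exact p = 0.1). With thinned cells and a threshold of 1 UMI these differences were 9.59, -7.54 and 17.1 points (exact p = 0.125, 0.476 and 0.1), and p21mTert_2 and p21mTert_5, at 22.5% and 25.2%, lay between p21mTertCD_2 at 13.1% and p21mTertCD_1 at 25.9%. The median total of members was 4627 and 5511 UMIs in p21mTert_2 and p21mTert_5 and 7821 and 13222 UMIs in p21mTertCD. The order of p21mTert_2, p21mTert_5 and the p21mTertCD libraries therefore depends on how depth is treated.

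As a share of all filtered cells, members made up 0.220% in WT. The p21Het libraries stood at 0.145%, 0.188% and 0.341%. The p21mTert libraries 1 to 5 stood at 0.498%, 3.83%, 0.412%, 0.447% and 2.73%, and the p21mTertCD libraries at 7.30% and 6.27%. Here the lowest of the 5 p21mTert values exceeded the highest p21Het value, and the lower p21mTertCD value exceeded every p21mTert value. Thinning, which changed the order of p21mTert_2, p21mTert_5 and the p21mTertCD libraries in the share of CD8 T cells, was not applied to this share. Whether the order here depends on depth was therefore not tested. The exact permutation p was 0.125 for p21mTert against p21Het (difference 1.36 points), 0.0476 for p21mTert against p21mTertCD (-5.20 points) and 0.1 for p21mTertCD against p21Het (6.56 points), of which the last 2 are the smallest these designs allow. Without p21mTert_2 the difference between p21mTert and p21Het was 0.798 points. With Benjamini-Hochberg adjustment over the 6 tests of shares, the adjusted p was 0.188 to 0.190, so none passed. The share of CD8 T cells among all cells was 7.92% in WT, 4.76 to 5.46% in p21Het, 6.55 to 11.1% in p21mTert and 15.3 to 15.6% in p21mTertCD. WT thus lay above every p21Het library in this share but within their range in its share of members, and the part of the CD8 share in the differences was not tested. Genotype and deposit could be separated only in part, since both p21mTertCD libraries belong to the later deposit.

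**Figure D2:**
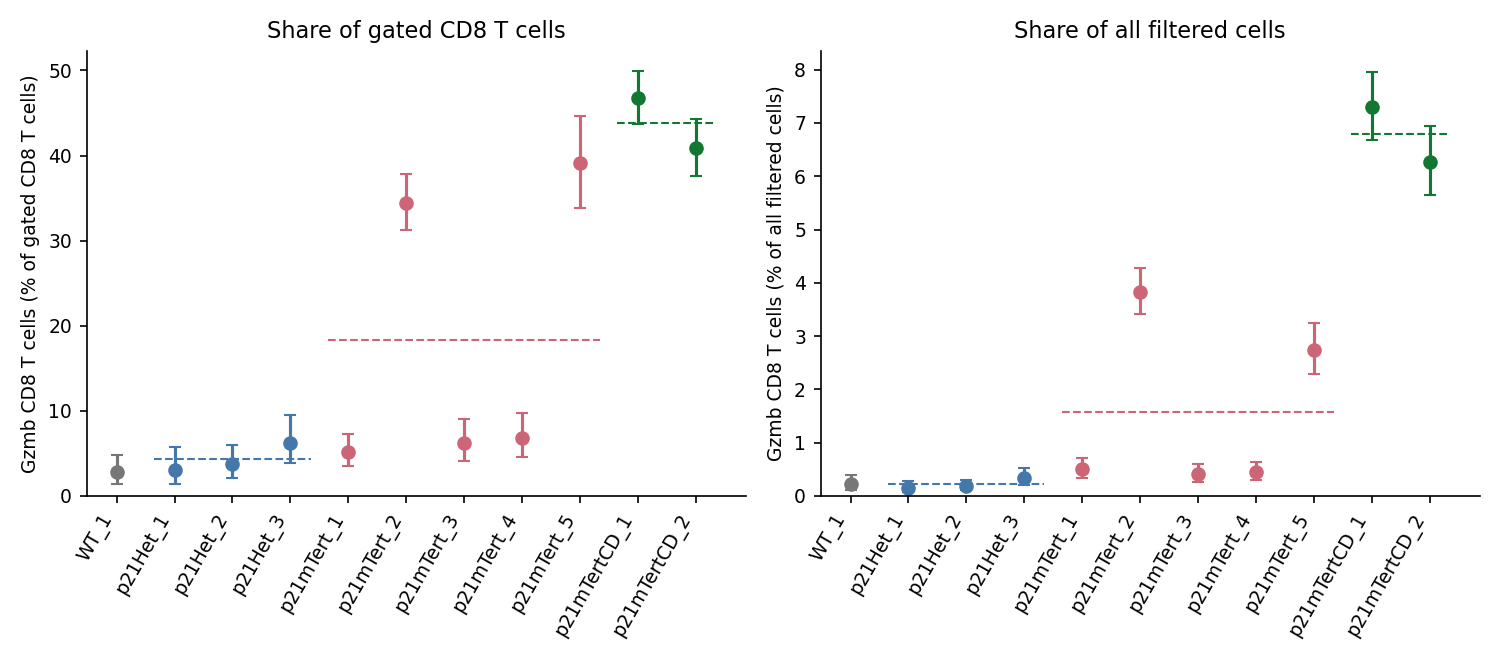
Members per library as a percentage of CD8 T cells (left) and of all filtered cells (right), in grey for WT, blue for p21Het, red for p21mTert and green for p21mTertCD. Points are libraries, bars exact 95% intervals for counting error, dashed lines group means; on the left p21mTert_2 and p21mTert_5 lie below both p21mTertCD libraries and above the other 3 p21mTert libraries.

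The members were then set against the 3200 CD8 T cells of the same suspensions with no Gzmb and no Gzmk UMI, fitted in the 10 libraries with at least 10 cells in both gates (p21Het_1, with 9 members, was left out). UMIs were summed per library and gate and fitted with edgeR's quasi-likelihood test with a term for library, and genes with a Benjamini-Hochberg adjusted p under 0.05 were called. The genes of the gate were not tested. Of 8546 genes, 546 (6.39%) were higher and 659 (7.71%) lower in members, 14.1% in either direction, and 2224 had an unadjusted p under 0.05. By the lists described next, 9 of 14 tested genes of granule killing, 5 of 6 cytokines and chemokines, 9 of 13 NK receptors and 12 of 14 cell cycle genes were higher in members, and 9 of 12 naive and memory genes were lower. Without the 4 libraries of over 100 members, 356 of 7487 tested genes were higher (4.75%) and 424 lower (5.66%), 10.4% in either direction. Scaling by library size alone called 1347 higher and 369 lower (78.5% higher, against 45.3% with TMM factors) and moved the median of all genes from -0.03 to 0.17, so small differences depend on the scaling.

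Among 17 genes of the killing machinery, 14 were tested, 9 were higher and none was lower, with a median log2 fold change of 0.69 against -0.03 over all genes tested. Gzma ranged over 57.2, 1549.7 and 2935 CPM in members (lowest, median and highest of 10 libraries, as in all such triplets that follow) and 0.333, 12.1 and 225 CPM in the other cells. It was higher in members in all 10 libraries, with a log2 fold change of 5.93 ± 0.64 (SE; edgeR adjusted p = 8.53e-06), although the lowest member value, in p21mTertCD_2, lay below the highest value of the other gate. Perforin (Prf1) ranged over 124, 167 and 311 CPM in members and 55.7, 63.9 and 126 CPM in the others (log2 fold change 1.10 ± 0.12, edgeR adjusted p = 9.30e-06). Nkg7, a granule membrane protein that takes part in granule release, had a UMI in every one of the 1389 members and in 84.9% of the other cells, at medians of 1911 and 534 CPM (log2 fold change 1.37 ± 0.11, edgeR adjusted p = 4.63e-07). Serpinb9, the inhibitor that protects a killer cell from its own granzyme B, was at 48.7, 169 and 242 CPM against 30.0, 39.6 and 90.0 CPM (log2 fold change 1.45 ± 0.17, edgeR adjusted p = 1.55e-05). Its relative Serpinb6b (log2 fold change 1.57), the death ligand genes Fasl (1.21) and Tnfsf10 (0.86), Cst7 (0.52), a cystatin that restrains cathepsins, and the lysosomal protease Ctsd (0.45) were the other called members of the list. Srgn, the proteoglycan core of the granule, did not pass (-0.03 ± 0.09, edgeR adjusted p = 0.897), nor did the granzyme Gzmm (-0.60 ± 0.29, adjusted p = 0.203). Gzmc and Gzmf had 5 and 0 UMIs in all members. In NK cells of the same lungs, given as a description, Gzma stood at 6260.5 to 13567 CPM and Prf1 at 804 to 1551 CPM, above every library of members for both genes. Gzmb stood at 497 to 1974 CPM there and overlapped the members. The members were selected by their Gzmb UMIs and the NK cells were not, so the Gzmb levels of the 2 cannot be compared.

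Of 11 cytokine and chemokine genes, 6 were tested and 5 were higher. Ccl5, the most abundant of them, was at 10363, 18359 and 22003 CPM in members against 3962, 4597 and 10510.1 CPM (log2 fold change 1.49 ± 0.15, edgeR adjusted p = 2.53e-06). Ccl4, a chemokine that draws other leukocytes, was at 103, 678 and 2024 CPM against 41.5, 68.5 and 334 CPM (log2 fold change 2.86 ± 0.39, edgeR adjusted p = 7.43e-05). Ifng, the interferon that activates macrophages, was at 23.4, 105 and 150.3 CPM against 4.89, 12.8 and 54.7 CPM (log2 fold change 2.29 ± 0.30, edgeR adjusted p = 5.27e-05). Ccl3 and Xcl1 rose by log2 fold changes of 2.88 and 0.93, and Tnf did not pass (-0.50 ± 0.31, edgeR adjusted p = 0.333). Il2, which naive and memory cells make on activation, had 40 UMIs in all members and was too low to be tested.

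Of 10 transcription factors of effector cells, all tested, 5 were higher and none lower. Zeb2 ranged over 28.0, 195 and 292 CPM in members and 14.8, 31.2 and 71.7 CPM in the other cells, higher in 9 of 10 libraries (log2 fold change 1.94 ± 0.36, edgeR adjusted p = 0.00106). Bhlhe40 (1.81), a factor of activated and resident cells, Prdm1 (1.72), which encodes the effector factor Blimp-1, Id2 (1.38) and Tbx21 (0.86), which encodes T-bet, were the others. Eomes, a relative of Tbx21 that also acts in memory cells, did not pass (0.32 ± 0.21, edgeR adjusted p = 0.383).

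The naive and memory list moved the other way: 9 of 12 genes, all tested, were lower in members and none was higher (median log2 fold change -1.34). Ccr7 ranged over 7.04, 111 and 392 CPM in members and 75.4, 535 and 690.4 CPM in the others, lower in all 10 libraries (log2 fold change -2.66 ± 0.36, edgeR adjusted p = 6.27e-05). The highest member value of Ccr7, 392 CPM, came from p21mTertCD_2 and overlapped the other cells' range. Lef1 (-1.71) and Tcf7 (-1.61), the factors that keep T cells naive or long-lived, Bach2 (-1.49), Slamf6 (-1.50), Il7r (-1.19), the receptor for the survival cytokine IL-7, S1pr1 (-0.90) and Bcl2 (-0.64) were lower too. By the rule for single genes, the largest fall was that of Dapl1, at 0, 0.460 and 24.0 CPM in members against 10.9, 111 and 154 CPM in the others (log2 fold change -4.99 ± 0.34, edgeR adjusted p = 5.20e-08). Actn1 (-2.44) and Rgs10 (-2.12) were also lower in all 10 libraries. Ly6c2, Cd27 and Id3 did not pass. Of all members 66.7% still held an Il7r UMI, against 90.0% of the other cells, and the library shares of members ran from 33.3% in p21Het_1 to 97.2% in p21mTertCD_2. Shares given over all cells pool libraries that hold members and other cells in unequal proportions. By library the Il7r share was lower in members everywhere but in p21mTertCD_2, at 97.2% against 94.0%. In p21mTertCD_1 it was 63.9% against 68.8%.

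Genes of homing and residence were mixed. In the list for circulating effector cells, 7 of 11 genes were higher and 1 was lower. Klrg1, an inhibitory receptor of terminal effectors, was at 3.44, 56.7 and 108 CPM against 0, 1.96 and 7.29 CPM (log2 fold change 4.25 ± 0.47, edgeR adjusted p = 9.30e-06), and had a UMI in 20.0% of members and 1.19% of the others. Cx3cr1 was at 0, 142 and 313 CPM against 2.33, 8.30 and 34.0 CPM (log2 fold change 3.54 ± 0.32, edgeR adjusted p = 1.18e-06). S1pr5 (1.75), and the adhesion molecules Itga4 (1.22), Itgb1 (0.98), Itgal (0.94) and Spn (0.77), were also higher. In the list for tissue-resident cells, 5 of 9 tested genes were higher, among them Rgs1 (1.81), Itga1 (1.71) and Cxcr6 (1.15). Itgae, the CD103 integrin that holds resident cells to epithelium, was lower (log2 fold change -1.83 ± 0.45, edgeR adjusted p = 0.00821), with a UMI in 1.08% of members and 8.78% of the others. Cd69 did not pass (-0.12 ± 0.10, edgeR adjusted p = 0.50), and Zfp683, the residence factor Hobit, had 13 UMIs in all members.

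Receptors of NK cells and checkpoint receptors were higher in part. Of 13 tested NK receptor genes, 9 were higher and none lower: Klra9 (2.46), Klrb1c (1.49), Klre1 (1.33), Klra3 (1.32), Klrk1 (1.08), which encodes the stress receptor NKG2D, Klrc1 (0.74), Cd7 (0.73), Klrc2 (0.67) and Klrd1 (0.45). Of 12 genes of the T cell receptor and its signalling, Cd6 (0.55), Lat (0.48) and Zap70 (0.41) were higher and none lower. The adaptors Tyrobp and Fcer1g, which NK cells carry in large amounts, did not pass. Of 8 tested checkpoint genes, 5 were higher: Cd160 (1.80), Lag3 (1.57), Nr4a2 (1.35), Entpd1 (1.30) and Tox (0.92). Icos was lower (-0.44), and Pdcd1, which encodes PD-1, did not pass at 1.08 to 69.1 CPM in members against 1.40 to 48.6 CPM (log2 fold change 1.24 ± 0.53, edgeR adjusted p = 0.136).

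Of 14 tested cell cycle genes, 12 were higher (median log2 fold change 1.62). Members with 2 or more UMIs over 9 cycling genes made up 15.3%, against 3.62% of the other cells. Of these 212 members 118 came from p21mTertCD_1, the highest library at 24.6%, and the lowest was p21Het_1 at 0%. With thinned cells the share in members was not above that of the other cells in WT_1, p21Het_1, p21Het_3 and p21mTert_2, and was above it in every other library. The gain was uneven: Mki67, which marks dividing cells, was at 10.0 CPM in WT, at 0, 12.9 and 0 CPM across p21Het, at 27.1, 21.5, 178, 224 and 170.2 CPM across p21mTert, and at 193 and 41.9 CPM across p21mTertCD. It was higher than in the other gate in 6 of 10 libraries (log2 fold change 1.90 ± 0.50, edgeR adjusted p = 0.0145). It was high in p21mTert_3, p21mTert_4, p21mTert_5 and p21mTertCD_1 and low in p21mTert_2, which held the third largest number of members. Hmgb2 was higher in all 10 libraries (1.15), as was Mcm5 (1.27). Of 13 tested interferon response genes 7 were higher, among them Ifit3 (1.63), Isg15 (0.90) and Ifi27l2a (0.67), and Iigp1 was lower (-1.12).

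Some of these counts and calls changed without the 4 libraries of over 100 members. Of the tested genes, 9 of 14 killing genes, 5 of 6 cytokines and chemokines, 7 of 10 effector factors, 6 of 9 circulating effector genes, 5 of 8 resident genes, 4 of 7 checkpoint genes, 9 of 13 NK receptors, 10 of 12 cell cycle genes, 3 of 12 T cell receptor genes and 2 of 11 interferon genes were then higher. Of the naive and memory genes, 9 of 12 were lower. Among the genes named above, Itgae, Entpd1, Icos, Klra3 and Isg15 lost their call there, and Klrg1, Ifit3 and Iigp1 were too low to be tested. With thinned cells Cst7, Xcl1, Tox, Klrd1, Ifi27l2a, Zap70, Lat and Cd6 lost theirs. By DESeq2 Mki67 did, and with scaling by library size alone Icos and Iigp1. With a minimum of 20 cells per gate Xcl1, Icos and Klrc2 lost theirs, and with no term for library Ctsd, Xcl1, Bcl2, Icos and Klra3. With no filter on low counts Zap70 lost its call. Leaving out single libraries took the call from Tnfsf10 (p21mTert_2), Mki67 (p21mTert_4), Klra3 and Zap70 (p21mTert_5), Icos (p21mTert_2 or p21mTert_5), and, under 5 or more of the 10 libraries each, from Ctsd, Xcl1, Iigp1 and Tox.

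Cdkn1a, the gene altered in these mice, did not pass the test between the gates. It had 316 UMIs in all members. Its level was 110.2 CPM in WT, 51.5, 0 and 34.6 CPM across p21Het, 32.5, 57.9, 43.3, 12.0 and 27.0 CPM across p21mTert, and 28.7 and 9.89 CPM across p21mTertCD. The values of p21Het, p21mTert and p21mTertCD overlapped, and the single WT value was the highest. It rests on 12 cells, of which 2 held a Cdkn1a UMI (16.7%). That share was smaller than in p21Het_1 (22.2%), p21mTert_2 (18.8%) and p21mTert_3 (19.2%). A UMI was found in 13.2% of members and 12.0% of the other CD8 T cells (log2 fold change -0.01 ± 0.30, edgeR adjusted p = 0.997). Tert had 10 UMIs in all 1389 members, which is too few to compare. None of the 11 tested genes of the list for p21, p53 and telomere proteins was called, and none had an unadjusted p under 0.05 by edgeR. By DESeq2 the fold change of Cdkn1a was 0.04 with an adjusted p of 0.964.

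**Figure D3:**
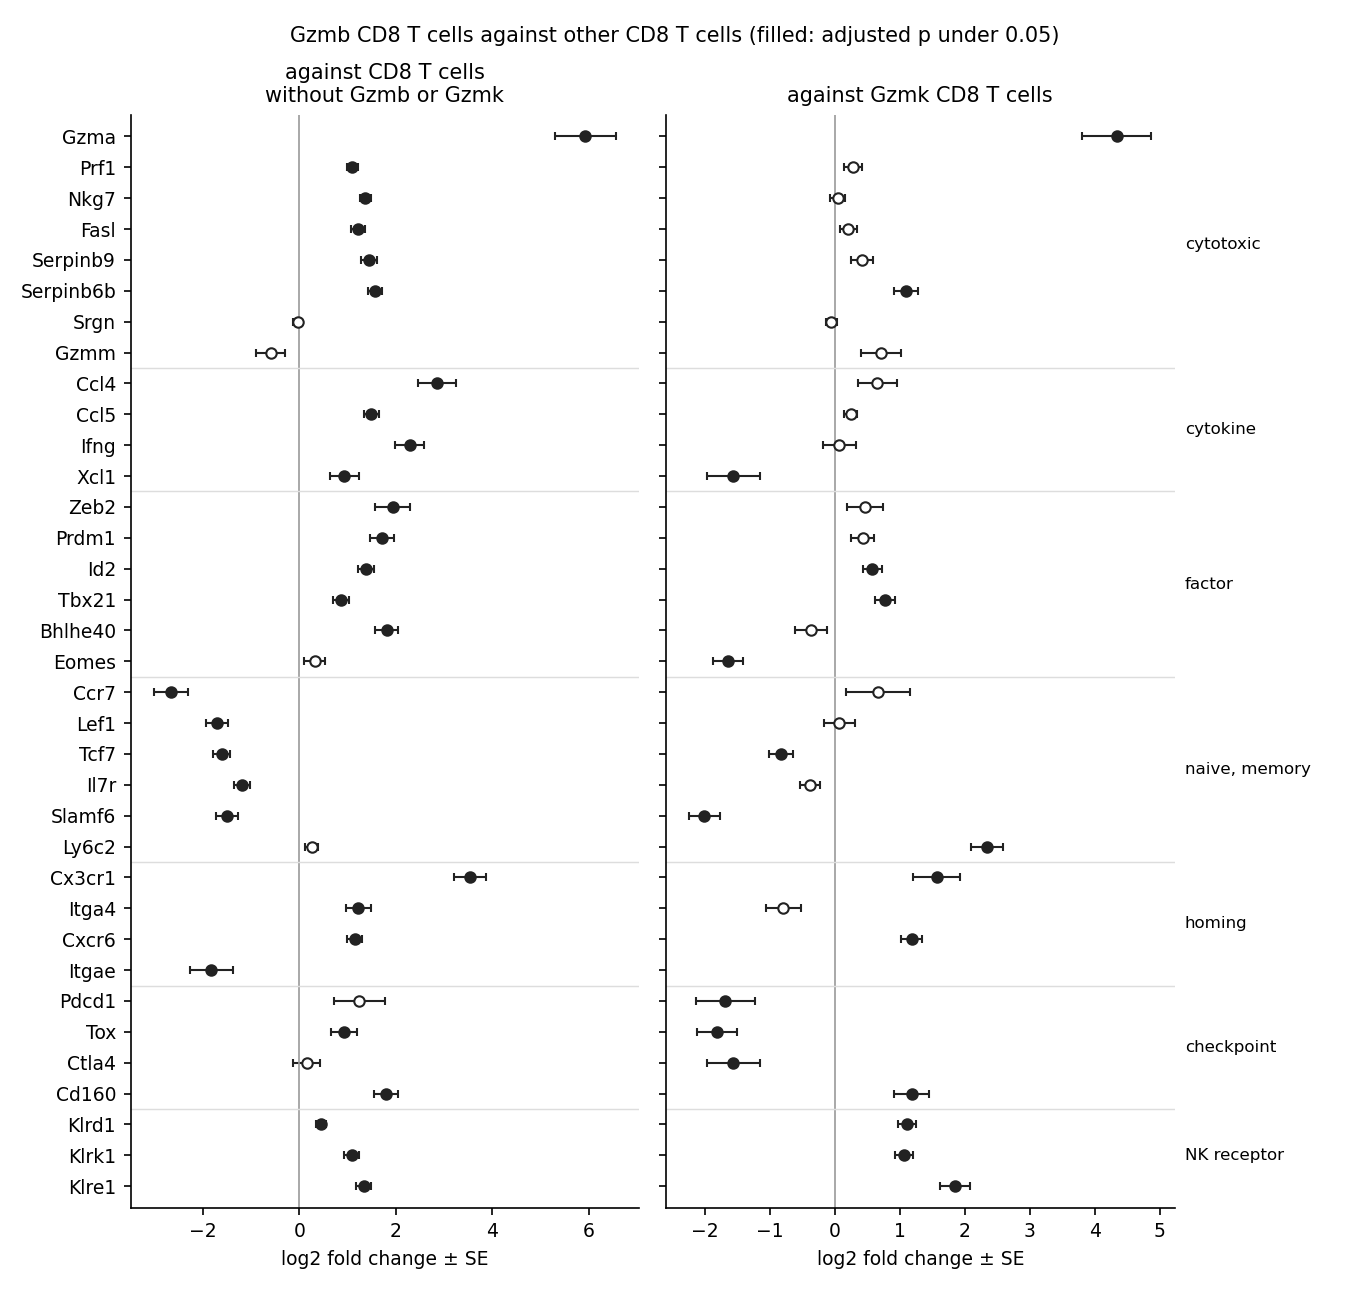
Log2 fold change ± SE of 35 genes in Gzmb CD8 T cells against CD8 T cells without Gzmb or Gzmk (left) and against Gzmk CD8 T cells (right), grouped by function, each from 10 libraries (Itgae was too low to be tested on the right). Filled points passed an adjusted p of 0.05; Lef1 and Ccr7 are low and filled on the left and open on the right, whereas Eomes, Tox and Slamf6 are low on the right and Ly6c2 is high.

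A second comparison set the members against Gzmk CD8 T cells, which held 2 or more Gzmk UMIs and no Gzmb (547 cells). Granzyme K marks antigen-experienced cells that accumulate with age. The gates are not separated by Gzmk itself, since 675 members (48.6%) also held a Gzmk UMI, from 5.13% of the members of p21mTertCD_2 to 81.8% of those of p21mTertCD_1. Of 3006 genes tested, 91 (3.03%) were higher in members and 140 (4.66%) lower by edgeR, 7.68% in either direction. Without the 4 libraries of over 100 members 42 of 2377 were higher (1.77%) and 36 lower (1.51%), 3.28% in either direction. Of 12 tested genes of the killing machinery, Gzma and Serpinb6b were the 2 called. Gzma was at 4.35, 20.2 and 333 CPM in Gzmk cells (log2 fold change 4.34 ± 0.53, edgeR adjusted p = 1.55e-04), higher in members in 9 of 10 libraries. The differences for Prf1 (0.28 ± 0.14), Nkg7 (0.04 ± 0.11) and Ifng (0.07 ± 0.26) did not pass. Ly6c2, a surface protein of circulating memory and effector cells, was at 554, 828 and 1571 CPM in members against 26.6, 163 and 445 CPM, and these ranges did not overlap (log2 fold change 2.34 ± 0.25, edgeR adjusted p = 9.32e-05). Of 8 tested NK receptor genes 6 were higher in members, led by Klre1 (1.84), Klrc1 (1.13) and Klrd1 (1.11). Cx3cr1 (1.57), Cxcr6 (1.19), Tbx21 (0.77) and Klf2 (0.77), a factor that keeps T cells in circulation, were higher as well.

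Several factors and checkpoint receptors were lower in members than in Gzmk cells. Eomes was at 40.3, 166 and 321 CPM against 301, 446 and 587 CPM, lower in all 10 libraries (log2 fold change -1.64 ± 0.23, edgeR adjusted p = 3.70e-04). Of 6 tested checkpoint genes, Tox (-1.81), a factor of exhausted cells, Pdcd1 (-1.68), Ctla4 (-1.56) and Nr4a2 (-1.23) were lower and Cd160 (1.19) was higher. Slamf6 was at 10.8, 39.3 and 72.1 CPM against 116, 156 and 239 CPM, with no overlap between the gates (log2 fold change -2.004 ± 0.233, edgeR adjusted p = 1.49e-04). Maf (-2.04), Gpr183 (-1.66), the chemokine Xcl1 (-1.56), Tcf7 (-0.83), Cd28 (-0.76) and Cd27 (-0.72) were lower too. Ccr7 and Lef1, which separated members from the first comparison gate, did not pass here. Without the 4 libraries of over 100 members, 5 of 7 NK receptor genes were higher and 3 of 5 checkpoint genes lower, Xcl1 and Pdcd1 lost their call, and Cd160 and Klrc1 were too low to be tested. Cx3cr1 did not pass by DESeq2, Tcf7 with no term for library, or Xcl1, Pdcd1, Ctla4 and Cd160 with a minimum of 20 cells per gate. Leaving out 1 library took the call from Ctla4 (p21mTert_1 or p21mTert_2), Pdcd1 (p21mTert_1, p21mTert_2, p21mTert_3 or p21Het_2) and Xcl1 (p21mTert_1, p21Het_3 or p21mTertCD_1). Both comparisons share the members, so their fold changes are not independent.

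RNA of other cell types in the members was measured by lists of their markers, as summed CPM per library. NK cell markers (8 genes) summed to 1422.5 CPM in WT, 608 to 2079 in p21Het, 489 to 673 in p21mTert and 517 to 1021 in p21mTertCD, against 634 to 824 in CD8 T cells with neither granzyme. Ncr1, the defining NK receptor, had a UMI in 11 members (0.792%) and in 6 of the other cells (0.188%). Its share was uneven, at 2 of 9 members in p21Het_1, 1 of 12 in WT_1 and 1 of 16 in p21Het_2. Klra8 had a UMI in 188 members (13.5%), mostly in p21mTertCD_2. Of 6 tested NK cell genes 1, Klrb1c, was higher in members and 1 was lower. Gamma delta T cell markers summed to 489 CPM in p21mTert_4, where 25.0% of members held a Trdc UMI, and to 15.3 to 130 CPM in the other libraries, against 21.7 to 167 in the other gate. B cell and myeloid markers were not raised in members as lists: of 5 tested B cell genes Cd74, Ighm and H2-Aa were lower, and of 7 myeloid genes Lyz2 and Chil3 were lower and Itgax, which activated T cells also carry, was higher. By DESeq2 Lyz2 and Chil3 did not pass, and without the 4 libraries of over 100 members Itgax did not. Myeloid markers summed to 2608 CPM in p21mTertCD_1 and to 301 to 1025 CPM elsewhere, and to 479 to 4167 CPM in the other gate. Between p21mTert and p21mTertCD the median log2 fold change of 5 tested myeloid genes was -1.94, where 2 had an unadjusted p under 0.05 and edgeR called 0. Haemoglobin and related erythroid genes summed to 9075 CPM in p21mTert_5 and to 49.9 to 1908 CPM elsewhere, and to 43.3 to 8086 CPM in the other gate. Dissociation stress genes summed to 7994 CPM in WT, 4931, 2130 and 3477 CPM in p21Het, 3149 to 5037 CPM in p21mTert, and 2041 and 2509 CPM in p21mTertCD. Endothelial markers summed to 661 CPM in WT and to 8.01 to 214 CPM elsewhere, and epithelial markers to 809 to 4623 CPM. Median UMIs per cell were lower in members than in the other CD8 T cells in 8 of 11 libraries, and higher in p21Het_2, p21mTertCD_1 and p21mTertCD_2. The part of these in the results above was not tested. With each cell thinned to 1000 UMIs, 106 genes were higher and 220 lower of 2854 tested against the first gate. The gates of that fit were still set on the full counts, so the part of depth in which cells entered them was not tested.

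The members of the 4 large libraries were compared with each other as a description, over 2641 genes with a mean of at least 50 CPM. In p21mTertCD_2, 24 genes lay more than 4-fold below and 5 more than 4-fold above all 3 other libraries. The same counts were 2 and 4 in p21mTert_2, 0 and 4 in p21mTert_5, and 1 and 1 in p21mTertCD_1. The 24 low genes of p21mTertCD_2 include Hbb-bt, Hbb-bs, Hba-a1, Hba-a2 and Acta2, which are not genes of T cells. The members of p21mTertCD_2 carried Gzmb (374 CPM against 802 to 1207 in the other three) together with Ccr7, the lymph node homing receptor. The Gzmb level depends in part on the gate, since 2 UMIs make a lower CPM in deeper cells. The median total of members was 13222 UMIs there and 4627 to 7821 in the other three. Ccr7 was at 392 CPM against 7.04 to 37.7, and 89.2% of these cells held a Ccr7 UMI. Satb1, a chromatin organiser of developing and naive T cells, was at 564 CPM against 57.5 to 105, and Gzmm and Fcgrt were high too (350.2 and 180.0 CPM). Effector genes were among those that were low there. Gzma was at 57.2 CPM against 1353 to 2528. The integrin Itga4 was at 37.2 CPM against 542 to 698. Bhlhe40 (24.5 CPM), Klrg1 (3.44), Cx3cr1 (8.17), Gzmk (11.4), Rgs1 (45.8) and Lgals3 (40.4) were low as well. Prf1, at 155 CPM, lay just below the other three (170.4 to 247).

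In p21mTert_2 the genes set apart included the smooth muscle genes Acta2 (392 CPM against 0.215 to 2.35) and Tagln (228 against 1.29 to 3.52) on the high side and the cycling genes Ube2c and Pclaf (both 1.95 CPM) on the low side. In p21mTert_5 the 4 high genes were haemoglobin genes. In p21mTertCD_1 the macrophage gene Chil3 was high (447 CPM against 24.7 to 38.7) and Fam241a low (12.9). Acta2, Tagln, the haemoglobin genes and Chil3 are not genes of T cells, and whether they came from the members was not tested.

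**Figure D4:**
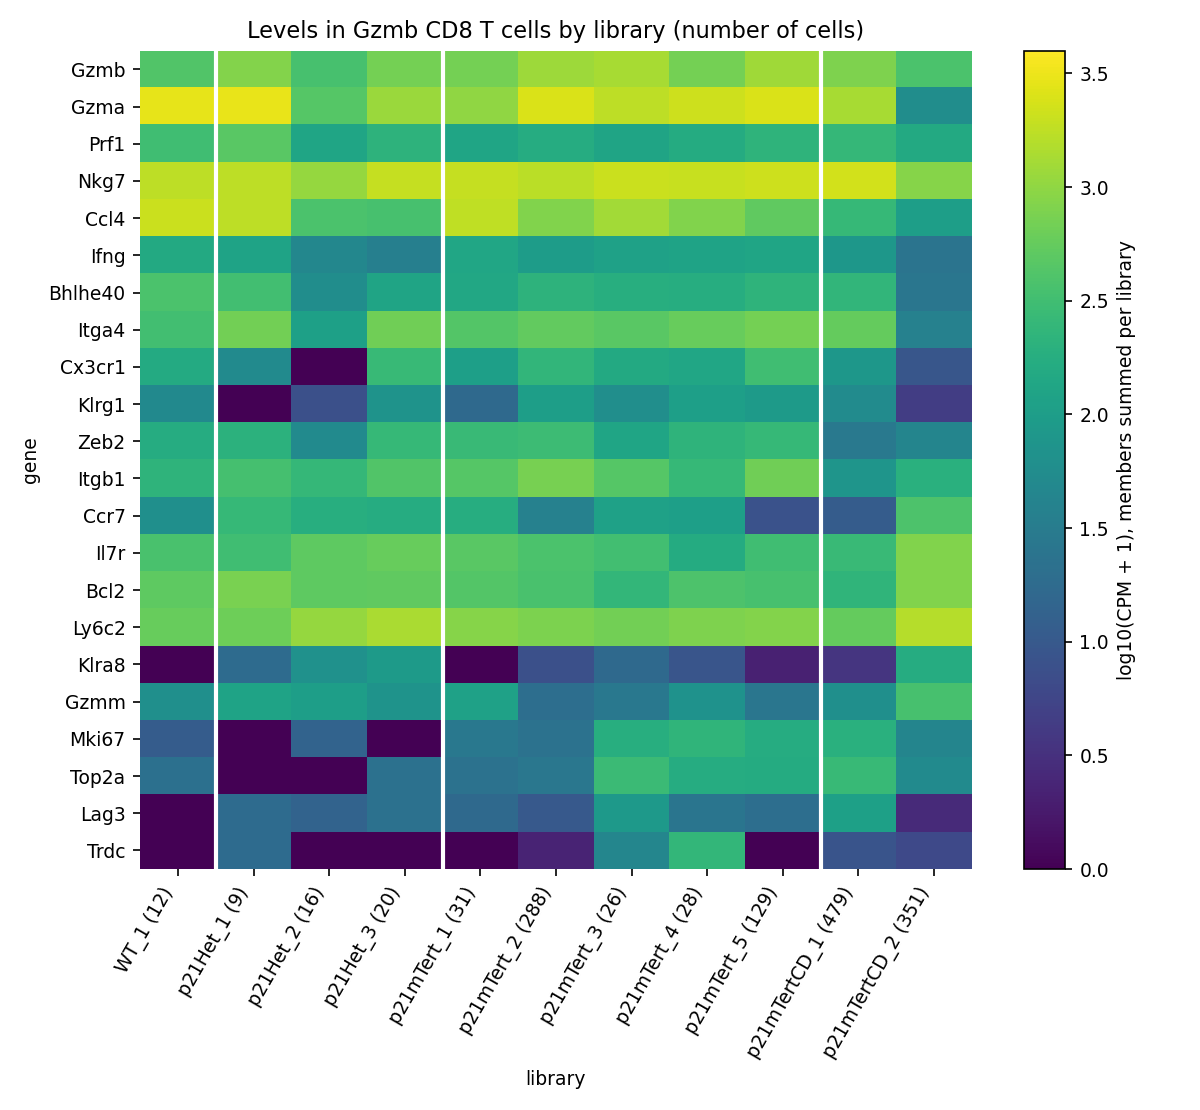
Levels of 22 genes in members by library, as log10(CPM + 1) of UMIs summed over the members, with the number of member cells in brackets and white lines between the genotypes. The last column, p21mTertCD_2, is dark for Gzma, Itga4, Cx3cr1 and Klrg1 and bright for Ccr7, Klra8 and Gzmm, unlike p21mTertCD_1.

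Whether the RNA of members differed between genotypes was tested over the 9 libraries of the 3 replicated genotypes with at least 10 members (p21Het_1 was left out, so p21Het had 2). Of 4071 genes, edgeR called none (0%) between p21mTert and p21Het, where 264 had an unadjusted p under 0.05 and DESeq2 called 1. It called none (0%) between p21mTertCD and p21Het, where 181 had an unadjusted p under 0.05 and DESeq2 again called 1. Between p21mTert and p21mTertCD it called 4 (0.0983%), 3 of them higher (0.0737%) and 1 lower (0.0246%) in p21mTert, with 282 genes at an unadjusted p under 0.05 and 31 called by DESeq2. These 3 contrasts share libraries, and the 2 p21Het libraries in them held 16 and 20 members.

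Zeb2, the factor of terminal effectors, was at 276, 292, 129.8, 220.4 and 256 CPM across p21mTert, against 28.0 and 42.4 CPM in p21mTertCD. All 5 p21mTert libraries lay above both p21mTertCD libraries, also p21mTert_2 and p21mTert_5, which held over 100 members (log2 fold change 2.58 ± 0.41, edgeR adjusted p = 0.0363). WT stood at 170.3 CPM and p21Het at 206, 51.6 and 256 CPM, of which p21Het_2 lay nearest to p21mTertCD. Among members Zeb2 rose with the Gzmb count, at 107, 178 and 235 CPM over their 3 bins. The median total of members was 7821 and 13222 UMIs in p21mTertCD and 4221 to 6790.5 UMIs in p21mTert. Cells were not thinned for the comparisons between genotypes, so the part of depth and of the gate in these calls was not tested. Sytl3, a synaptotagmin-like protein of vesicle transport, was at 131 ± 23.6 (SD, n = 5) CPM in p21mTert and 38.6 ± 16.2 (SD, n = 2) CPM in p21mTertCD (log2 fold change 1.62 ± 0.25, edgeR adjusted p = 0.0363). The other 2 called genes were under the 50 CPM set for naming and are named because they complete the count, after their values were seen. Nebl, which encodes an actin-binding protein, was at 35.3 ± 11.0 (SD, n = 5) CPM against 2.22 ± 0.814 (SD, n = 2) CPM (log2 fold change 3.75 ± 0.61, edgeR adjusted p = 0.0363). Bend4 was at 6.14 ± 1.39 (SD, n = 5) CPM against 42.3 ± 1.06 (SD, n = 2) CPM (log2 fold change -2.90 ± 0.40, edgeR adjusted p = 0.0270). It was at 17.2, 38.7 and 55.3 CPM across p21Het, from 1, 6 and 8 UMIs, and had 0 UMIs in WT. Dissociation stress genes moved with this comparison: their sum was higher in all 5 p21mTert libraries than in both p21mTertCD libraries, and of 11 tested genes (median log2 fold change 0.71, against 0.01 over all genes) 6 had an unadjusted p under 0.05 and edgeR called 0. Their part in the 4 calls was not tested. None of the 4 genes kept its edgeR call with a term for deposit, a term that rests on p21mTert_1, the only fitted library of the first deposit. Without p21mTert_1, the 3 called genes were Bend4, Nebl and P2rx7 (the last named after its values were seen), and Zeb2 and Sytl3 did not pass, nor did they with no filter on low counts. Without p21mTertCD_2 Bend4 did not pass. Sytl3 kept its call when p21mTertCD_1 or p21mTertCD_2 was left out and lost it without any one of the other 7 libraries. No gene was called when p21mTert_2 or p21mTert_5 was left out. Without p21mTertCD_1 the count was 197 and without p21mTertCD_2 it was 29, each from a fit that leaves 1 p21mTertCD library and assumes that it varies like the other groups. The 3 smaller p21mTert libraries held 26 to 31 members each, so that a single UMI weighs heavily in their levels.

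The genes of smallest p that did not pass are given as values. Between p21mTert and p21Het these were Exoc3 (1.55 ± 0.38), Anp32e (1.49 ± 0.39) and Cdkn2d (1.02 ± 0.27) on the higher side (log2 fold changes, edgeR adjusted p = 0.735 for each). On the lower side were Lcn2, Chil1 and Klhl6. Lcn2, which encodes an iron-binding protein of neutrophils and epithelium, rested on p21Het_2 alone: it was at 697 CPM there and at 6.91 CPM in p21Het_3, against 5.42 to 16.4 CPM in p21mTert, and its fold change of -5.14 ± 1.01 turned to 0.93 without p21Het_2. Between p21mTertCD and p21Het, Zeb2 was among the 3 lowest (-2.02 ± 0.50, edgeR adjusted p = 0.999), with Ier5l (-2.18 ± 0.47) and Kcnn4 (-1.53 ± 0.34), and Glipr2, Eapp and Ifi27 were the 3 on the higher side (0.97 ± 0.27, 2.04 ± 0.58 and 1.05 ± 0.30).

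The variable segments of the T cell receptor, which the gate did not use, were read last. A cell was given a beta segment (Trbv) or alpha segment (Trav) when 1 such gene held more UMIs than all others together. 3′ sequencing seldom reaches these segments, and only 252 members received a Trbv and 219 a Trav. Typing was uneven: 26 of 351 members received a Trbv in p21mTertCD_2, 133 of 479 in p21mTertCD_1, 49 of 288 in p21mTert_2 and 23 of 129 in p21mTert_5. The cause of this unevenness was not tested. Trbv12-2, Trbv16 and Trav8d-1 led in p21mTertCD_2 and p21mTert_2, and the last 60 bases of each are shown, with a relative of Trbv12-2, because they hold the codon for the conserved cysteine that starts the antigen-binding loop (capitals). They are from GRCm38 with GENCODE M21, each in the last exon of a 2-exon gene on the + strand: Trbv12-2 at chr6:41119305-41119364, its close relative Trbv12-1 at chr6:41114008-41114067, Trbv16 at chr6:41152171-41152230 and Trav8d-1 at chr14:52778936-52778995.
Trbv12-2: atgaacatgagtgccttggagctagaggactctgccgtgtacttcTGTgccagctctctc
Trbv12-1: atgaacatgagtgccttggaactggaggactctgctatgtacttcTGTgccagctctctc
Trbv16: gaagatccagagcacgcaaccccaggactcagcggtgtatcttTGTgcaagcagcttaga
Trav8d-1: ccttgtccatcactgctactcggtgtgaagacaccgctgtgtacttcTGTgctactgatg
Trbv12-2 and Trbv12-1 were identical at 328 of 372 aligned bases (88.2%) and differed at 4 of the last 60. Trav8d-1 was identical to Trav8-1 at 325 of 337 aligned bases (96.4%) and at all of the last 60. Counts of such near copies may be split or swapped, so these names are uncertain to that extent.

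Of the 4 libraries with at least 10 typed members, 2 had 1 Trbv segment in more than 50% of them. The leading segment is the most frequent one by choice, the typed cells of a library may belong to 1 clone, and the intervals cover counting error only. In p21mTertCD_2, Trbv12-2 was the segment of 21 of 26 typed members (80.8%, exact 95% confidence interval 60.6 to 93.4%) and Trav8d-1 that of 19 of 29 (65.5%). These are few of its 351 members, and the level of Trbv12-2 over all of them was 5.16 CPM (24 UMIs), below the 7.29 CPM (31 UMIs) of p21mTertCD_1. The highest level in any library, 10.0 CPM in the 12 members of WT_1, rests on 1 UMI. The share among typed members therefore does not give the share among all members. The leading Trbv of the other CD8 T cells of that library, also Trbv12-2, made up 6 of 23 (26.1%, interval 10.2 to 48.4%). In p21mTert_2, Trbv16 was the segment of 26 of 49 typed members (53.1%, interval 38.3 to 67.5%), against a leading share of 11 of 85 (12.9%, interval 6.64 to 22.0%) in the other cells. No Trav segment led there to a like degree: Trav9-4 was the segment of 11 of 57 typed members (19.3%) and Trav6n-6 that of 10, and the probability that 2 typed members share a Trav was 8.58%, against 42.4% in p21mTertCD_2. Trav9-4 has near copies too, being identical to Trav9d-2 at 333 of 340 aligned bases (97.9%). In p21mTertCD_1, by contrast, the 133 typed members were spread over 19 segments and the leading one, Trbv12-2, made up 15.8%. In p21mTert_5, Trbv19 led with 7 of 23 (30.4%, interval 13.2 to 52.9%). The probability that 2 typed cells of a library share a Trbv segment was 29.3% in members and 6.19% in other cells of p21mTert_2, 11.9% and 5.67% in p21mTert_5, 7.79% and 5.79% in p21mTertCD_1, and 64.6% and 7.91% in p21mTertCD_2. It was higher in members in 4 of 4 libraries with at least 10 typed cells in both gates, by a mean of 22.0 percentage points, at a 2-sided exact sign-flip permutation p of 0.125, the smallest that 4 libraries can give. Without p21mTertCD_2 the mean was 10.4 points. With at least 5 typed cells, 6 libraries entered, the mean was 15.8 points and the exact permutation p was 0.0312, again the smallest possible. The 2 libraries added, p21mTert_3 and p21mTert_4, held 5 typed members each, of which 2 shared a segment. The probability was 10% in the members of both, against 7.10% and 6.18% in other cells. Each of these 2 differences therefore rests on 1 pair of members.

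The 2 constant genes of the beta chain give a count that does not need the variable segment, since a T cell as a rule uses either Trbc1 or Trbc2. Among cells in which one exceeded the other, 64.3% of the members of p21mTert_2 held more Trbc1 than Trbc2 UMIs, against 28.0% of its other CD8 T cells. In p21mTertCD_2 the members were lower, at 8.28% against 18.3%. The shares were 21.9% of members and 35.2% of other cells in p21mTert_5, and 37.3% and 34.7% in p21mTertCD_1. Within p21mTert_2, 23 of the 26 members with Trbv16 held more Trbc1, against 8 of 23 with another segment. In p21mTertCD_2, 20 of 21 members with Trbv12-2 held more Trbc2, against 2 of only 5 with another segment, and of the members with Trav8d-1, 14 held more Trbc2 and 3 more Trbc1. In p21mTertCD_1, where Trbv12-2 made up 15.8%, 16 members with it held more Trbc2 and 4 more Trbc1, against 60 and 49 with another segment. Whether the Trbv12-2 and Trav8d-1 cells of p21mTertCD_2 are the same cells could not be read, since 0 of them were typed for both. The leading segment was Trbv16 in p21mTert_2, Trbv19 in p21mTert_5 and Trbv12-2 in both p21mTertCD libraries, where it also led in the other cells of p21mTertCD_2.

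**Figure D5:**
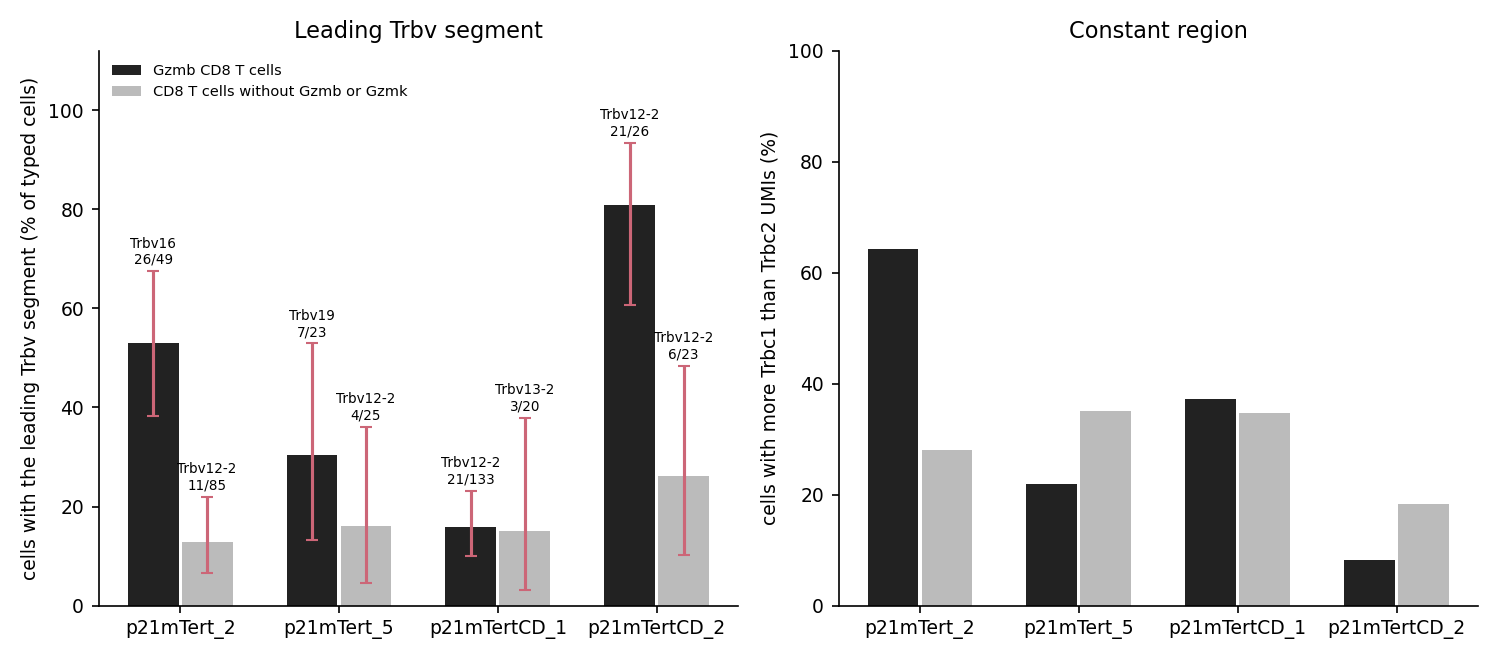
Left: percentage of typed cells with the leading Trbv segment in the 4 libraries with over 100 members, in members (black) and in CD8 T cells without Gzmb or Gzmk (grey), with exact 95% intervals, the segment and the cell counts. Right: percentage of cells with more Trbc1 than Trbc2 UMIs. Members of p21mTert_2 lie above their grey bar, those of p21mTert_5 and p21mTertCD_2 below theirs, and those of p21mTertCD_1 close to theirs.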

How the data were processed

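Lungs were dissociated and their cells sequenced with a droplet 3′ assay, with no sort stated. Per the labels' protocols the authors used Cell Ranger, and per the submitters' processing notes the mm10 build. The deposited matrices hold counts of UMIs per gene and barcode (31053 genes, smallest barcode total 500). The gates, the lists and their members were chosen with earlier results of these data known. UMIs were summed per library and gate, libraries with under 10 cells in a gate were left out, and sums were fitted with edgeR 4.0.16 (R 4.3.3; filterByExpr, TMM, quasi-likelihood test, Benjamini-Hochberg adjusted p under 0.05), with library as a block between gates. Fits were tested on simulated data. Shares were compared by exact permutation over libraries (scipy 1.17.1). Doublets were scored with Scrublet in scanpy 1.11.5. Its own thresholds failed in some libraries, so 0.8% per 1000 barcodes were marked, a rate chosen after seeing them. DESeq2 1.42.0, other scalings, filters, gates, thinning and leaving libraries out were tried. Single genes were named by size of change among called genes, at 100 CPM or more between gates and 50 CPM or more between genotypes, with the same direction in every library (gates) or no overlap of libraries (genotypes). WT has 1 library and entered no test between genotypes. Intervals cover counting error only. Some genes are not reported here.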

Additional observations from a re-analysis of the deposited data

Results flagged for a closer look

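Over 33 sets of values by genotype, 2 single libraries lay far from the rest of their group, where chance flags about 1 group in 20. Lag3, an inhibitory receptor gene, was at 86.5 CPM in the members of p21mTert_3 and at 9.10 to 24.0 CPM in the other 4 p21mTert libraries. Trdc, the constant gene of the delta chain that gamma delta T cells use, was at 244 CPM in the members of p21mTert_4 and at 0 to 43.3 CPM in the other 4. These libraries held 26 and 28 members, so few cells set both values.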

How the results depend on the processing

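The share of CD8 T cells in p21mTert minus p21mTertCD was -35.3 points (exact p = 0.0476) with a gate of 1 or more Gzmb UMIs. With cells thinned to 1000 UMIs it was -0.173 points (exact p = 0.952) at the threshold of 2 UMIs, an alternative added after seeing the data, and -7.54 points (exact p = 0.476) at 1 UMI. The difference in the share of all cells between these groups did not pass as a share of T cells (-12.9 points, exact p = 0.190). Nor did it on the logit scale (-1.97, exact p = 0.0952). In the later deposit only it was -4.93 points (exact p = 0.0667). Leaving out 1 library gave -5.76 to -4.69 points (exact p = 0.0667 for each p21mTert library left out). With so few libraries this p is the smallest possible, so these alternatives could not pass 0.05 whatever the values. Against CD8 T cells without Gzmb or Gzmk, 1205 of 8546 tested genes were called in the main fit and 326 of 2854 after thinning. Without the 4 libraries of over 100 members, an alternative added after seeing the data, the count was 780 of 7487. Against Gzmk cells it was 231 of 3006 in the main fit, 571 of 17445 with no filter, 42 of 392 after thinning and 78 of 2377 without those libraries. The number of genes tested changed along with these counts, and its part in them was not tested.

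Between p21mTert and p21Het, DESeq2 called 1 gene and leaving out 1 library 0 to 2. Between p21mTert and p21mTertCD, 31 were called by DESeq2, 10 without TMM, 2 with no filter, 1 with a minimum of 5 cells, 9 without doublets, 9 with 3 or more Gzmb UMIs, 0 with a term for deposit and 0 to 197 when 1 library was left out. Between p21mTertCD and p21Het, DESeq2 called 1 and leaving out 1 library 0 to 7. The numbers in the labels name no shared animals. The fit with a replicate block also dropped p21mTert_1, whose label gives no number, so it had 8 libraries, 6587 genes and 1 residual degree of freedom. These 3 counts were then 20, 240 and 51, against 0, 3 and 0 for the same libraries and genes with no block. The probability of sharing a Trbv segment differed by 15.8 points with at least 5 typed cells, and by 10.4 to 28.7 points when 1 library was left out.

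Of values that did not pass, some turned direction. Between p21mTert and p21Het, with a minimum of 20 cells or without p21Het_2 (the same libraries), Lcn2 stood at 0.93, Chil1 at 0.052 and Zeb2 at -0.042. Leaving out 1 library gave -6.14 to 0.93 (Lcn2, p21mTert minus p21Het), -4.55 to 0.052 (Chil1, p21mTert minus p21Het) and -0.042 to 1.84 (Zeb2, p21mTert minus p21Het). Cdkn1a between the gates stood at 0.042 by DESeq2, 0.19 without TMM, 0.13 without doublets, 0.071 with no replicate block, 0.30 without the 4 libraries and -0.28 to 0.26 when 1 library was left out. Between p21mTertCD and p21Het, Cdkn1a stood at -0.25 with a minimum of 5 cells, -0.63 with 20, -0.14 without doublets, -0.62 with 3 or more Gzmb UMIs, -0.55 with the replicate block and -0.63 to 7.89 when 1 library was left out, the highest value being set against p21Het_2 alone, which held no Cdkn1a UMI. The cause was not tested. Of the single genes named or listed, 2580 values between gates and 305 between genotypes kept their direction and their side of the threshold. A value that passed in neither fit counts as kept. Another 220 and 21 lost their call, of which the report names the genes it describes. A further 2 and 8 gained a call, and 9 and 13 turned direction. In 7 libraries the members numbered 31 or fewer, which limits what their levels can show.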
